A study of Mus musculus with 16 samples.

Results

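The nuclear genes that encode respiratory complexes II, III, IV and V and cytochrome c were followed in mIMCD3 cells given doxycycline (DOX). They were chosen by symbol (*Sdha* to *Sdhd*, and symbols that begin with *Uqcr*, *Cox4* to *Cox8* or *Atp5*, with *Cyc1* and *Cycs* added) and by level, as at least 1 CPM (counts scaled to the size of the library) in at least 4 of the 16 libraries. Of 51 matching genes 44 met that level, among 13234 genes tested in all: 4 of complex II, 9 of complex III, cytochrome c, 13 of complex IV and 17 of complex V. The mIMCD3 line was derived from inner medullary collecting duct cells of an SV40 T antigen transgenic mouse, and the cells are labelled as wild type. They were grown for 10 days on permeable filters and given either the vehicle DMSO or 2 µg/mL DOX, with a daily change of medium, for 3 or 6 days. This gave 4 groups of 4 libraries of polyadenylated RNA (DMSO 3 days, DOX 3 days, DMSO 6 days and DOX 6 days). All cells come from 1 immortalized line, and the labels number the replicates without saying what separates them, so p-values measure the spread between these libraries only.

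The respiratory chain passes electrons from NADH and succinate to oxygen and stores the energy as a proton gradient across the inner mitochondrial membrane. Complex II, succinate dehydrogenase, feeds electrons from the citric acid cycle and is the only complex encoded wholly in the nucleus. Complex III hands them to cytochrome c, complex IV reduces oxygen with them, and complex V, the ATP synthase, lets protons back to make ATP. Complexes III, IV and V join nuclear subunits with subunits that are encoded in mitochondrial DNA and translated on mitochondrial ribosomes. Doxycycline is a tetracycline antibiotic of bacterial ribosomes that is also known to impair mitochondrial translation. Kidney tubule cells spend much of their ATP on ion transport, and several complex IV subunits exist as a general form and a form typical of heart and skeletal muscle.

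Library totals ran from 16933343 to 23960860 estimated counts, so that 3 counts were worth 0.1252 to 0.1772 CPM, and replicates of a group correlated with r of 0.9891 to 0.9964. The 7 epithelial markers were all expressed, with a summed level of 1597 to 2628 TPM (a level that also divides by transcript length) in every library. Of 8 collecting duct markers, 5 were too low to be tested, among them *Aqp2*, the vasopressin-regulated water channel. The collecting duct list summed to 6.88 to 10.1 TPM in DMSO and to 3.09 to 4.99 TPM in DOX libraries, so the line carried few of the defining transcripts of its tissue. All 3 testable ones (*Scnn1a*, *Hsd11b2* and *Gata3*) were lower in DOX at 6 days, as were 4 of the 7 epithelial markers (*Krt8*, *Krt18*, *Cldn4* and *Tjp1*). *Hsd11b2* met the limit on level only through DMSO libraries, where it is higher, so its fall is a description. Its groups overlapped at 6 days (0.616 to 1.29 CPM in DMSO and 0.196 to 0.698 CPM in DOX). At 3 days *Scnn1a*, *Gata3*, *Cdh1* and *Krt8* were lower. The sums of fibroblast, endothelial and muscle markers stayed at or below 1.26 TPM, and of these lists only 2 endothelial genes were tested, with 0 called. Of 4 leukocyte markers, *Cd68*, which many other cells also express, was the one tested and was lower at both times, with a summed level of 17.3 to 24.6 TPM in DMSO and 7.81 to 12.7 TPM in DOX. The part of these shifts in the results below was not tested. In bulk RNA, fewer cells of a type and less RNA per cell cannot be told apart.

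Some libraries stood apart for many of the genes. DOX 3 days replicate 1 had the lowest CPM of its group for 41 of the 44 genes, with a median deviation of -0.24 (log2) from the group mean. DMSO 3 days replicate 4 was the lowest of its group for 41 genes as well, with a median deviation of -0.12.

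Together the 44 genes took 1.83% of all TPM in DMSO-treated cells. Summed TPM in DMSO at 3 days was 348 ± 15.7 (SD, n = 4) for complex II, 3188 ± 62.2 for complex III, 6838 ± 179.6 for complex IV and 7694 ± 124 for complex V. In complex II the highest level in the 8 DMSO libraries was that of *Sdhc*, a membrane anchor (140.5 ± 12.1 TPM, SD, n = 8), and the lowest that of *Sdha*, the flavoprotein that oxidizes succinate (53.4 ± 4.89 TPM). In complex III the range ran from *Uqcrq*, a small subunit (946 ± 43.0 TPM), down to *Uqcrc2*, a core protein (82.8 ± 6.54 TPM). Complex IV ran from *Cox6a1* (1057 ± 63.8 TPM) to *Cox6a2* (5.72 ± 1.06 TPM), its heart and muscle counterpart. Complex V ran from *Atp5e*, the epsilon subunit of the rotor (968 ± 68.1 TPM), to *Atp5s*, coupling factor B, which is not a core subunit (14.9 ± 2.81 TPM). *Cycs*, somatic cytochrome c, was at 33.4 ± 2.26 TPM.

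The other 7 matching genes fell short of the limit on level. *Cox4i2*, *Cox6b2*, *Cox7b2*, *Cox8b* and *Cox8c*, tissue-restricted forms of complex IV subunits, peaked at 0.161, 0.118, 0.0501, 0 and 0 CPM. The processed pseudogene *Cox6c2* peaked at 0.104 CPM and a second gene named *Atp5o* at 0.231 CPM. The nearest gene inside the limit was *Cox7a1*, which reached 1 CPM in 11 libraries and in no DOX library at 6 days, so that it passed on the other groups alone. It had 10 to 60 counts per library. *Cox6a2*, with 35 to 206 counts, was next.

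Between 3 and 6 days in DMSO none of the 44 genes was called by edgeR's glmTreat, which tests whether a change exceeds 1.2-fold, and 0.0% of all genes tested were. At an unadjusted p under 0.05 the same test gave 0 of the 44 and 172 of 13234 genes, and DESeq2 called 0 of 13234 genes. Without the fold-change threshold edgeR called 0 of the 44 and 62 of 13234 genes. The median log2 fold change of the 44 genes was -0.046.

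After 3 days of DOX 1 of the 44 genes was called, *Cox6a2*, which was higher. Of all tested genes 12.5% were called at 3 days, 5.3% higher and 7.22% lower. The median log2 fold change was 0.133, against 0.003 over all tested genes, with 36 genes positive and 8 negative. After 6 days 13 genes were called, 1 higher and 12 lower (11 lower without *Cox7a1*, which entered through the groups where it is higher), while 21.6% of all tested genes were called, 10.0% higher and 11.6% lower. The median moved to -0.207, against -0.001 over all tested genes, with 10 genes positive and 34 negative. Among the 1447 tested genes at or above the median level of the 44 genes, 8.22% were higher and 13.8% lower at 6 days. All 4 DOX libraries lay above all 4 DMSO libraries for 7 of the 44 genes at 3 days and below them for 0, where 38.6% of all tested genes had separated libraries, 18.8% above and 19.8% below. At 6 days the DOX libraries lay above for 5 genes and below for 19, against 43.0% separated in all, 22.1% above and 20.9% below. The 19 include *Cox7a1*.

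The size of the median depended on the scale, and so did its sign at 3 days where TPM was not centred. On log2(TPM + 1) the median of all genes itself moved by -0.149 at 3 days and -0.055 at 6 days, and the 44 genes' median at 3 days was -0.072, which is above that shift. With the libraries centred on this scale the 44 genes' median at 3 days was 0.136, against 0.059 over all tested genes. With an offset for transcript length and GC content it was 0.025. The negative sign at 6 days held in every alternative. The count of 13 at 6 days was 9 in DESeq2 and 6 in limma on centred log2(TPM + 1), where *Cox7b* (adjusted p = 0.116) and *Atp5j* (adjusted p = 0.107) were among those that no longer passed. The summed TPM of the 44 genes was 18301 ± 471 in DMSO and 14673 ± 541 in DOX at 6 days (SD, n = 4), a ratio of 0.802, and their summed CPM, scaled by the trimmed mean of M values (TMM), had a ratio of 0.908. At 3 days the ratios were 0.96 for TPM and 1.12 for TMM-scaled CPM.

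**Figure D1:**
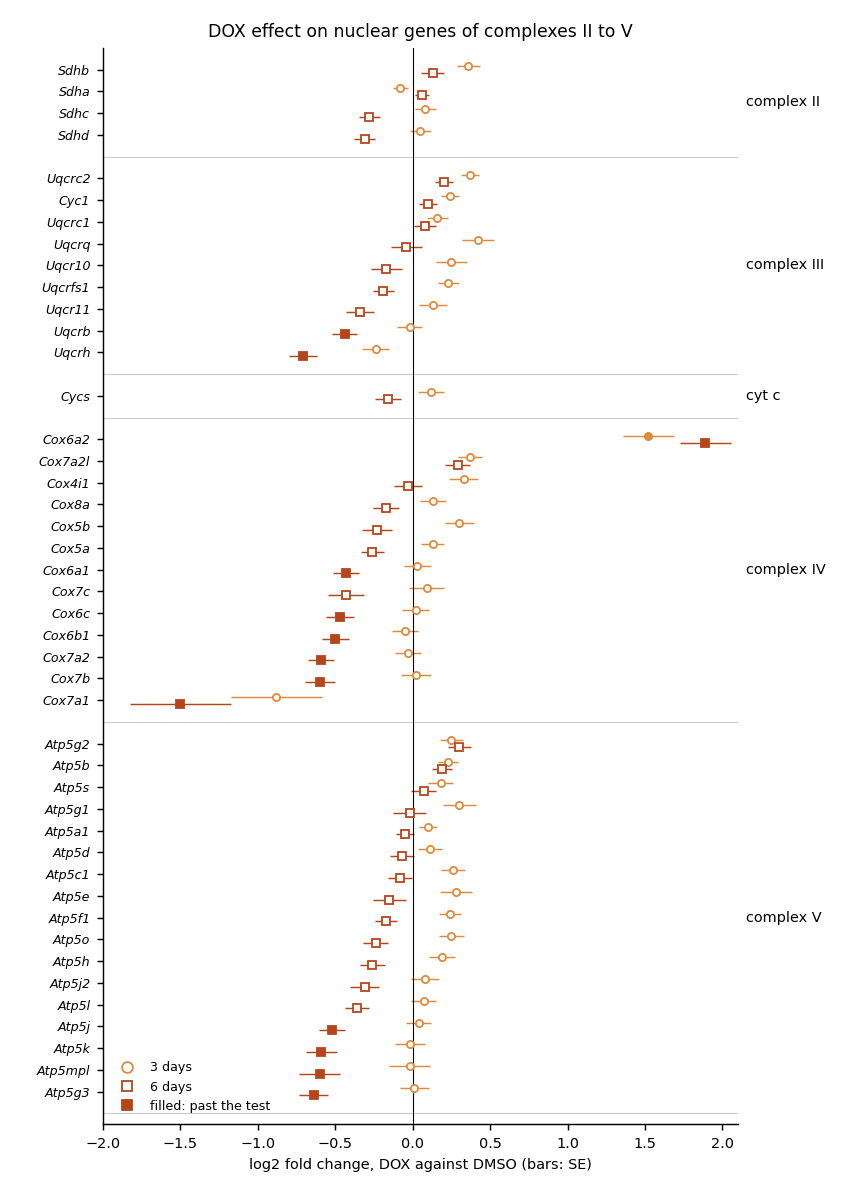
Log2 fold change of DOX against DMSO for the 44 genes at 3 days (circles) and 6 days (squares), grouped by complex and ordered by the value at 6 days. Bars are SE from the 16-library fit and filled symbols passed the test. At 3 days 1 symbol is filled, and at 6 days 13 are, 12 of them left of 0.

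By complex at 6 days, none of the 4 complex II genes passed (median log2 fold change -0.107), nor did cytochrome c (-0.16). In complex III 2 of 9 genes were lower (median -0.168). In complex IV 6 of 13 genes were lower, or 5 without *Cox7a1*, and 1 was higher (median -0.426). In complex V 4 of 17 genes were lower (median -0.168). Over all tested genes 11.6% were lower and 10.0% higher at 6 days. At 3 days the medians were 0.065, 0.118, 0.230, 0.090 and 0.178 for complex II, cytochrome c, complexes III, IV and V, and -0.010, 0.152, 0.124, -0.088 and 0.032 with the offset for length and GC content. The difference between complexes in these counts was not tested, since the subunits are not replicates. Summed TPM at 6 days went from 394 ± 13.4 in DMSO to 347 ± 10.5 in DOX for complex II, from 3216 ± 102 to 2665 ± 111 for complex III, from 6869 ± 195 to 5359 ± 182 for complex IV and from 7788 ± 177 to 6272 ± 254 for complex V (SD, n = 4), with no overlap of libraries in any of them on this scale. In summed TMM-scaled CPM the ratios of DOX to DMSO were 0.933, 0.932, 0.851 and 0.932, and the libraries overlapped in all 4 complexes.

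The upstream sequences of 5 genes on which the results turn are shown here, because *Cox6a1*, *Cox7a1* and *Cox7a2* belong to subunit pairs with a muscle form and *Uqcrh* and *Atp5g3* had the largest falls of complexes III and V. Each is the 250 bases before the RefSeq start on GRCm38.p6, written 5′ to 3′ on the strand of the gene, at chr7:30183921-30184170 (+), chr9:79759854-79760103 (-), chr5:115348959-115349208 (-), chr4:116075071-116075320 (-) and chr2:73911327-73911576 (-). Capitals mark the core that nuclear respiratory factor NRF1 binds, GCGCA followed by any base and GCGC, and CCGGAAG, bound by GABP (also called NRF2), on either strand. The GENCODE gene begins 0 to 27 bases inside these windows.
Cox7a1: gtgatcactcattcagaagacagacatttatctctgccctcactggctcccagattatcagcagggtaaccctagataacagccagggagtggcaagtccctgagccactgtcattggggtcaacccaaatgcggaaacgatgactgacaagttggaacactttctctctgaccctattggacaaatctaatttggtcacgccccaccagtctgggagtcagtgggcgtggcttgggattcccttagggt
Cox7a2: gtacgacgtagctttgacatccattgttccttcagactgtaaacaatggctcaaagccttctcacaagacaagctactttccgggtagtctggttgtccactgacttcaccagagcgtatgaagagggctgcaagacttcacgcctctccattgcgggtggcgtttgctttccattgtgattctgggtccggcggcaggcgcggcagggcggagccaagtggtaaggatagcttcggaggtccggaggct
Cox6a1: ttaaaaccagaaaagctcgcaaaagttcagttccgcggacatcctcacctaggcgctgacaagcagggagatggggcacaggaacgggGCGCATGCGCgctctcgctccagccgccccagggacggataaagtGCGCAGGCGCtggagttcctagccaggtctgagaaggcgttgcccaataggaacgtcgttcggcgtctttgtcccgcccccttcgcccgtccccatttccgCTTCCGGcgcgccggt
Uqcrh: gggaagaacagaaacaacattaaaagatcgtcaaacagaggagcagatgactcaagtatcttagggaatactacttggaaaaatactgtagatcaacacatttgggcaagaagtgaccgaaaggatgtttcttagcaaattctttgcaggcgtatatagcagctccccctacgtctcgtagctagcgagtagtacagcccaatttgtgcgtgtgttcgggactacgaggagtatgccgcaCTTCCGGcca
Atp5g3: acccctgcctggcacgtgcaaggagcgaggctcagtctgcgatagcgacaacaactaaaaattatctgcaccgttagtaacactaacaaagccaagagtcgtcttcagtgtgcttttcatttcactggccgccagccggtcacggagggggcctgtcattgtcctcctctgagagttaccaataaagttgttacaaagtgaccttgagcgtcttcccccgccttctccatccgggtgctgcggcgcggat
The *Cox6a1* window held 2 matches to the NRF1 motif and 1 to the GABP motif, the *Uqcrh* window 1 to the GABP motif, and the other 3 windows no match to either.

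Windows were found for 32 of the 44 genes, as 35 windows. The NRF1 motif occurred in 7 of these (20.0%) and in 3.74% of 32851 mouse windows of this length, and the GABP motif in 9 (25.7%) and in 6.91%. The YY1 motif AAGATGG occurred in 1 window (2.86%) and in 4.49% of all. Both strands were searched, each motif on its own. The median GC content was 54.4% in the 35 windows and 52.4% in all. Among the 10 windows of genes that were lower at 6 days, 2 held the NRF1 motif, 4 the GABP motif and 1 the YY1 motif. These are matches of letters and not measured binding. No window was found for *Atp5a1*, *Atp5f1*, *Atp5mpl*, *Atp5s*, *Cox4i1*, *Cox6a2*, *Cox6c*, *Cyc1*, *Sdhc*, *Uqcrb*, *Uqcrc2* or *Uqcrq*.

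In complex IV, 6 of 13 genes were lower at 6 days (5 without *Cox7a1*) and 1 was higher, the muscle-type *Cox6a2*, beside 11.6% lower and 10.0% higher of all tested genes. *Cox6a2* (chr7:128205435-128206387), the heart and muscle form of subunit VIa, was at 2.57, 2.51, 3.15 and 1.52 CPM in the DMSO libraries and 5.96, 8.17, 6.02 and 7.54 CPM in the DOX libraries at 3 days. At 6 days it was at 2.57, 2.07, 2.22 and 1.99 CPM in the DMSO libraries and 7.14, 8.46, 8.29 and 8.79 CPM in the DOX libraries. Every DOX library was above every DMSO library at both times. It rose at 3 days (log2 fold change 1.52, SE 0.165, adjusted p = 2.86e-06) and at 6 days (log2 fold change 1.89, SE 0.165, adjusted p = 3.29e-08, 3.69-fold), by edgeR's glmTreat with Benjamini-Hochberg adjustment over all tested genes, as for every adjusted p given here. It remained 1 of the 2 least abundant genes of complex IV.

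*Cox7a1* (chr7:30184144-30186078), the heart and muscle form of subunit VIIa, was at 3.67, 2.42, 2.58 and 1.87 CPM in the DMSO libraries and 0.701, 1.25, 2.17 and 1.58 CPM in the DOX libraries at 3 days. At 6 days it was at 2.52, 1.47, 2.33 and 1.36 CPM in the DMSO libraries and 0.754, 0.903, 0.518 and 0.491 CPM in the DOX libraries. The groups overlapped at 3 days and were apart at 6 days, where the DOX libraries were all below 1 CPM. Since *Cox7a1* met the limit on level only through groups where it is higher, its 6-day value (log2 fold change -1.50, SE 0.324, adjusted p = 0.00224, 0.354 of DMSO) is a description. At 3 days the change missed the limit (-0.88, adjusted p = 0.0844). Without DOX 3 days replicate 3 the 3-day change also passed (-1.15, adjusted p = 0.0279), as it did with the offset for length and GC content (-1.01, adjusted p = 0.0295) and without a filter on level (-0.88, adjusted p = 0.031). These 3-day values are descriptions as well, at 10 to 60 counts per library. The 4 muscle markers (*Ckm*, *Acta1*, *Myh1* and *Tnnt3*) were too low to test and summed to 0.115 to 0.876 TPM over the libraries.

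The general forms of the same subunits, which carry most of their transcripts, were lower at 6 days. *Cox7a2* (chr9:79755361-79759878), whose window above held neither motif, was at 135, 142, 122 and 122 CPM in the DMSO libraries and 92.8, 81.0, 88.5 and 83.8 CPM in the DOX libraries at 6 days. At 3 days it was at 150.2, 139.7, 139.8 and 123 CPM in the DMSO libraries and 109.6, 138, 143 and 151 CPM in the DOX libraries. The groups were apart at 6 days and overlapped at 3 days, and *Cox7a2* fell to 0.664 of DMSO at 6 days (log2 fold change -0.59, SE 0.0842, adjusted p = 0.000776). *Cox7b* (chrX:106015700-106022450), another small transmembrane subunit, was at 85.9, 88.7, 85.0 and 85.9 CPM in the DMSO libraries and 67.3, 55.1, 53.9 and 51.4 CPM in the DOX libraries at 6 days. It was at 106, 94.0, 96.1 and 83.6 CPM in the DMSO libraries and 75.5, 99.6, 102 and 109 CPM in the DOX libraries at 3 days. Its 6-day libraries did not overlap and it fell to 0.659 of DMSO (log2 fold change -0.60, SE 0.0975, adjusted p = 0.00196).

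*Cox6b1* (chr7:30616861-30626151), on the intermembrane side of the enzyme, was at 216, 187, 167 and 174 CPM in the DMSO libraries and 146, 125, 131 and 124 CPM in the DOX libraries at 6 days. At 3 days it was at 208, 207, 193 and 181 CPM in the DMSO libraries and 156, 201, 199.7 and 203 CPM in the DOX libraries. It fell at 6 days (log2 fold change -0.50, SE 0.0865, adjusted p = 0.00883), where the highest DOX library was below the lowest DMSO library. *Cox6c* (-0.47, adjusted p = 0.0189) and *Cox6a1* (-0.43, adjusted p = 0.0405), both small transmembrane subunits, fell as well. *Cox6a1* lost its call with 5 of the 8 libraries of 6 days left out in turn (DMSO replicates 1 and 2, DOX replicates 2, 3 and 4) and had a log2 fold change of -0.35 with adjusted p = 0.158 without DMSO replicate 1. *Cox6c* lost its call without DMSO replicate 2 (-0.44, adjusted p = 0.0538) and without DOX replicate 2 (-0.43, adjusted p = 0.066). It overlaps *Vps13b* on the other strand, which had 35.5% as many counts, and the sources used here do not say whether the counting used strand.

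The remaining 6 complex IV genes did not pass. *Cox7c* had a log2 fold change of -0.43 at 6 days with all DOX libraries below DMSO (SE 0.116, adjusted p = 0.109), *Cox5a* at -0.26, *Cox5b*, which binds zinc, at -0.23, *Cox8a* at -0.17 and *Cox4i1*, the regulatory subunit IV, at -0.03. *Cox7a2l*, a relative of *Cox7a* that joins complexes III and IV in supercomplexes, had a log2 fold change of 0.29 with all 4 DOX libraries above DMSO (SE 0.0804, adjusted p = 0.415), and passed in the direction of a rise with the offset for length and GC content (0.37, adjusted p = 0.0143).

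**Figure D2:**
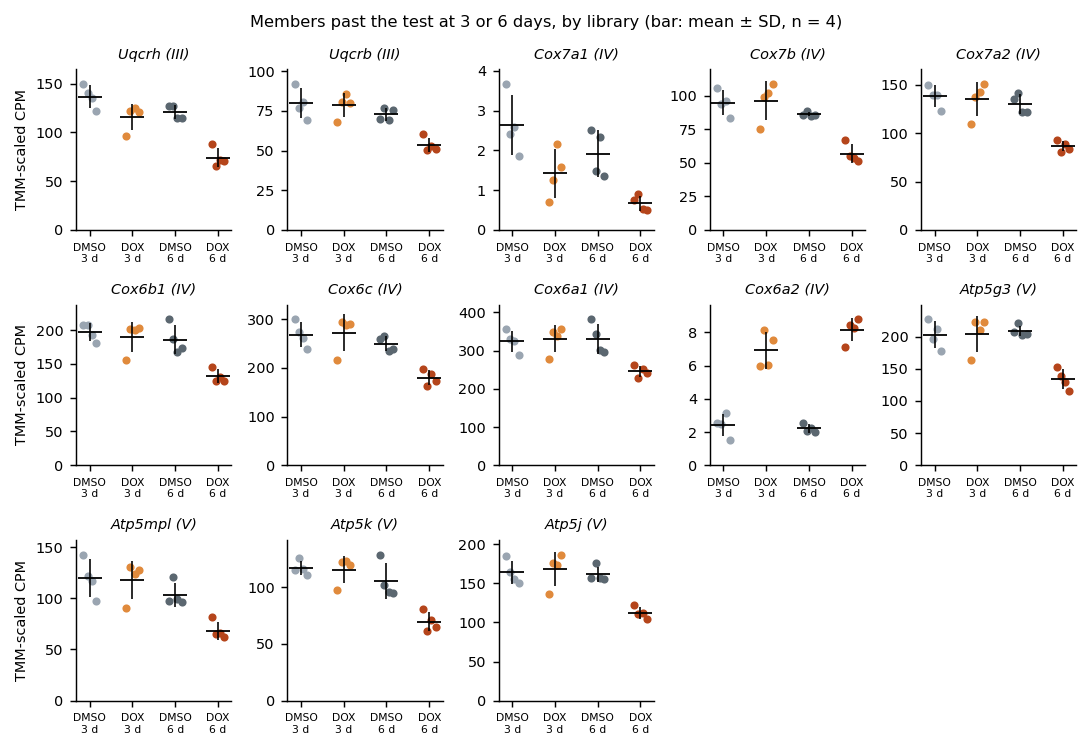
TMM-scaled CPM in each of the 16 libraries for the 13 genes called at 3 or 6 days (points), with the mean and SD of each group of 4. In 12 panels the DOX 6 days points lie below all DMSO 6 days points, and in the panel of *Cox6a2* they lie above.

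In complex III, 2 of 9 genes were lower at 6 days, *Uqcrh* and *Uqcrb*, beside 11.6% of all tested genes. *Uqcrh* (chr4:116066965-116075071), the acidic hinge protein next to cytochrome c1, was at 127, 127, 115 and 115 CPM in the DMSO libraries and 88.1, 65.3, 71.8 and 70.8 CPM in the DOX libraries at 6 days. At 3 days it was at 149.7, 140.2, 135 and 122 CPM in the DMSO libraries and 96.3, 122, 125 and 121 CPM in the DOX libraries. The 6-day groups were well apart, the 3-day groups overlapped slightly, and *Uqcrh* fell to 0.61 of DMSO at 6 days (log2 fold change -0.71, SE 0.0891, adjusted p = 6.85e-05). At 3 days its change was -0.24 (adjusted p = 0.79), and -0.42 (adjusted p = 0.0041) with the offset for length and GC content.

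*Uqcrb* (chr13:66900617-66905378), a subunit near the quinone site, was at 69.6, 76.8, 69.2 and 75.8 CPM in the DMSO libraries and 60.2, 50.6, 52.8 and 50.8 CPM in the DOX libraries at 6 days. At 3 days it was at 91.9, 76.9, 80.8 and 69.1 CPM in the DMSO libraries and 67.7, 80.3, 85.5 and 80.1 CPM in the DOX libraries. It fell at 6 days with separated libraries (log2 fold change -0.44, SE 0.0831, adjusted p = 0.0264). This call was lost with 5 of the 8 libraries left out in turn (DMSO replicates 2 and 4, DOX replicates 2, 3 and 4, adjusted p up to 0.0708) and under the offset for length and GC content (-0.25, adjusted p = 0.761). *Uqcr11*, another small subunit, was at 125, 109, 90.8 and 92.7 CPM in the DMSO libraries and 86.3, 73.9, 85.4 and 84.5 CPM in the DOX libraries at 6 days and at 107, 111, 108 and 101 CPM in the DMSO libraries and 97.6, 123, 122 and 125 CPM in the DOX libraries at 3 days. Its DOX libraries were all lower at 6 days, yet the change of -0.34 missed the limit (adjusted p = 0.241).

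*Uqcr10*, a further small subunit, was at 129.8, 103, 96.1 and 93.5 CPM in the DMSO libraries and 99.4, 84.6, 98.9 and 93.1 CPM in the DOX libraries at 6 days and at 118, 119.9, 121 and 102 CPM in the DMSO libraries and 113, 146, 144 and 145 CPM in the DOX libraries at 3 days, with overlapping groups at both times (-0.17 at 6 days). *Uqcrfs1*, the Rieske iron-sulphur protein, was at 98.8, 99.9, 91.7 and 92.0 CPM in the DMSO libraries and 91.7, 84.6, 82.8 and 76.7 CPM in the DOX libraries at 6 days and at 93.8, 91.4, 88.8 and 81.1 CPM in the DMSO libraries and 89.7, 110.2, 105 and 111 CPM in the DOX libraries at 3 days. Its DOX libraries were lower at 6 days only, by a small amount (-0.19, adjusted p = 1). *Uqcrq* had a log2 fold change of -0.04 at 6 days, and the other catalytic and core genes had positive values, 0.10 for *Cyc1* (cytochrome c1), 0.08 for *Uqcrc1* and 0.20 for *Uqcrc2*, whose DOX libraries were all above DMSO at both times. By structure, 0 of 4 core and catalytic genes were called (median 0.092) and 2 of 5 small subunits were lower (median -0.341), a difference that was not tested. The core and catalytic genes had transcripts of 1363 to 1896 bases and the small subunits of 434 to 810 bases. Structure and transcript length can thus not be told apart here.

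In complex V, 4 of 17 genes were lower at 6 days, *Atp5g3*, *Atp5mpl*, *Atp5k* and *Atp5j*, beside 11.6% of all tested genes. *Atp5g3* (chr2:73908447-73911326), 1 of 3 genes for subunit c of the rotor ring, was at 207, 221, 203 and 204 CPM in the DMSO libraries and 152, 139.5, 129 and 115 CPM in the DOX libraries at 6 days. At 3 days it was at 227, 196, 212 and 177 CPM in the DMSO libraries and 163, 222, 211 and 222 CPM in the DOX libraries. The groups overlapped at 3 days and were far apart at 6 days, where *Atp5g3* fell to 0.641 of DMSO (log2 fold change -0.64, SE 0.0956, adjusted p = 0.00073). *Atp5mpl* (chr12:111961375-111966977), a small proteolipid of the membrane part, was at 97.4, 121, 99.1 and 96.1 CPM in the DMSO libraries and 81.4, 64.7, 65.9 and 61.9 CPM in the DOX libraries at 6 days and at 143, 122, 117 and 97.5 CPM in the DMSO libraries and 90.6, 130.4, 124 and 128 CPM in the DOX libraries at 3 days. It fell at 6 days (log2 fold change -0.60, SE 0.132, adjusted p = 0.017), a call that was lost without DMSO 6 days replicate 2 (-0.51, adjusted p = 0.0576).

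*Atp5k* (chr5:108433244-108434448), subunit e at the interface of ATP synthase dimers, was at 129, 102, 95.8 and 94.9 CPM in the DMSO libraries and 80.9, 61.6, 71.4 and 65.4 CPM in the DOX libraries at 6 days and at 115, 126, 116 and 111 CPM in the DMSO libraries and 97.9, 122, 123 and 119.6 CPM in the DOX libraries at 3 days. It fell at 6 days with separated groups (log2 fold change -0.59, SE 0.0981, adjusted p = 0.00249). *Atp5j* (chr16:84827866-84835625), coupling factor 6 of the peripheral stalk, was at 157, 176, 157 and 156 CPM in the DMSO libraries and 122, 111, 112 and 104 CPM in the DOX libraries at 6 days and at 185, 164, 156 and 151 CPM in the DMSO libraries and 137, 176, 174 and 187 CPM in the DOX libraries at 3 days. It fell at 6 days (log2 fold change -0.52, SE 0.0819, adjusted p = 0.0034), also with separated groups. It overlaps *Gabpa* on the opposite strand, which had 57.1% as many counts, so reads of the pair may have been mixed.

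*Atp5l*, subunit g, the dimer partner of subunit e, was at 139.6, 131, 119 and 125 CPM in the DMSO libraries and 108, 91.2, 103 and 99.4 CPM in the DOX libraries at 6 days and at 149.6, 144, 137 and 123 CPM in the DMSO libraries and 119, 154, 152 and 153 CPM in the DOX libraries at 3 days. The 6-day DOX libraries were all lower, and its change of -0.36 missed the limit (adjusted p = 0.148). *Atp5j2* (subunit f) had a log2 fold change of -0.31 at 6 days, *Atp5h* (subunit d) at -0.26, *Atp5o* (the oligomycin sensitivity protein) at -0.24 and *Atp5f1* (subunit b) at -0.17, with overlapping groups for all 4. Of the F1 part, which holds the catalytic sites and central stalk, *Atp5b* (beta) had a log2 fold change of 0.19 with separated groups, *Atp5a1* (alpha) at -0.05, *Atp5c1* (gamma) at -0.08, *Atp5d* (delta) at -0.07 and *Atp5e* (epsilon) at -0.15, and 0 of the 5 passed. *Atp5s* had a log2 fold change of 0.07. By part at 6 days, 2 of 4 genes of the Fo membrane part were lower (median -0.476), 1 of 4 of the peripheral stalk (-0.249), 1 of 3 of the c ring (-0.022) and 0 of 5 of F1 (-0.07), and the parts were not tested against each other. The Fo genes had transcripts of 322 to 748 bases, and the F1 genes other than *Atp5e* had over 1000 bases. Part and transcript length can thus not be told apart between Fo and F1.

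In complex II neither time gave a call, beside 12.5% of all tested genes at 3 days and 21.6% at 6 days. Its 4 genes have no mitochondrially encoded partner, and their transcripts were long, of 1142 to 2900 bases. *Sdhd*, a membrane anchor with the largest change at 6 days, was at 80.5, 80.9, 74.3 and 80.0 CPM in the DMSO libraries and 69.7, 64.9, 60.8 and 59.8 CPM in the DOX libraries at 6 days and at 79.2, 72.0, 71.5 and 67.6 CPM in the DMSO libraries and 64.7, 79.4, 75.1 and 80.9 CPM in the DOX libraries at 3 days. *Sdhc*, the other anchor, was at 153, 146, 145 and 143 CPM in the DMSO libraries and 133, 122, 117 and 114 CPM in the DOX libraries at 6 days and at 141, 127, 136 and 126 CPM in the DMSO libraries and 119, 144, 148 and 149 CPM in the DOX libraries at 3 days. At 6 days the DOX libraries of both were all below DMSO, with log2 fold changes of -0.31 (SE 0.0697, adjusted p = 0.313) and -0.28 (SE 0.0673, adjusted p = 0.504). The catalytic subunits had log2 fold changes of 0.06 (*Sdha*) and 0.13 (*Sdhb*, the iron-sulphur subunit). *Cycs* was at 70.02, 86.2, 78.4 and 79.0 CPM in the DMSO libraries and 73.4, 74.7, 69.2 and 62.9 CPM in the DOX libraries at 6 days and at 83.8, 79.9, 74.7 and 67.7 CPM in the DMSO libraries and 69.0, 85.4, 85.9 and 91.8 CPM in the DOX libraries at 3 days, with overlapping groups and a log2 fold change of -0.16 (adjusted p = 1).

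Leaving out DOX 3 days replicate 1, the library that was low for 41 genes, raised the count at 3 days from 1 to 5. Besides *Cox6a2*, *Uqcrq* (0.52, adjusted p = 0.00865), *Cox7a2l* (0.45, adjusted p = 0.0159), *Sdhb* (0.44, adjusted p = 0.0067) and *Uqcrc2* (0.42, adjusted p = 0.00741) were then higher. Leaving out DMSO 3 days replicate 1 added *Cox7a2l* alone (0.45, adjusted p = 0.0254), with 1617 of all tested genes called.

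The DOX effect differed between 3 and 6 days for 27 of the 44 genes, all with the lower value at 6 days, where 17.0% of all tested genes differed, 9.58% lower and 7.44% higher (interaction term in edgeR, quasi-likelihood test without a fold-change threshold). Among the 1447 tested genes at or above the median level of the 44 genes, 18.1% were lower. The median of the difference was -0.414 over the 44 genes and 0.006 over all tested genes. Among all tested genes with transcripts under 1000 bases it was -0.295, with 26.7% lower, and over the 44 genes it was -0.181 with the offset for length and GC content. By complex, 2 of 4 genes of complex II (*Sdhc* and *Sdhd*, both -0.36), 6 of 9 of complex III, 8 of 13 of complex IV and 11 of 17 of complex V differed. Among the genes that passed, the largest differences were those of *Atp5g3* (-0.65, SE 0.135, adjusted p = 0.00394), *Cox7b* (-0.62, SE 0.137, adjusted p = 0.0057) and *Atp5mpl* (-0.58, SE 0.185, adjusted p = 0.0431). Of the 27 genes, 21 had a positive value at 3 days and a negative one at 6 days, and 16 were not called at 6 days. Of the 12 genes lower at 6 days, 11 differed between the times and *Cox7a1* did not (-0.62, SE 0.437, adjusted p = 0.348). With a threshold of 1.2-fold on the difference 0 of the 44 genes and 183 of 13234 tested genes passed. With the offset for length and GC content 14 of the 44 did, 13 of them among the 27, and 1731 of all tested genes.

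Where a subunit has more than 1 expressed gene, the share of each in their summed TPM was compared by an exact permutation test, two-sided over 70 arrangements with a smallest p of 0.0286, with adjustment over 10 tests. *Cox6a2* made up 0.545, 0.581, 0.741 and 0.403% of the *Cox6a* pair in DMSO and 1.62, 1.77, 1.35 and 1.59% in DOX at 3 days. At 6 days it made up 0.521, 0.455, 0.555 and 0.508% in DMSO and 2.03, 2.72, 2.48 and 2.75% in DOX. The share was higher in all DOX libraries at both times (exact permutation p = 0.0286, adjusted p = 0.0409), although *Cox6a1* still supplied nearly all of the pair. The *Cox7a1* share of its pair was 4.26 ± 0.963% in DMSO and 2.36 ± 0.818% in DOX at 3 days, and 3.42 ± 0.966% and 1.81 ± 0.626% at 6 days (SD, n = 4). These groups overlapped and both tests missed the limit (exact permutation p = 0.0571, adjusted p = 0.0634).

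Within the subunit c trio the 3 genes share a mature protein and differ in their import sequence. The level of each share depended on how near-identical copies were counted, and the first values given are without copies. *Atp5g3* fell from 68.4 ± 0.548% to 63.9 ± 1.02% of the trio at 3 days and from 70.7 ± 0.378% to 58.9 ± 0.728% at 6 days (SD, n = 4, exact permutation p = 0.0286, adjusted p = 0.0409 at both times). *Atp5g1* rose from 19.6 ± 0.388% to 22.9 ± 1.31% and from 17.9 ± 1.06% to 22.9 ± 1.07% (exact permutation p = 0.0286, adjusted p = 0.0409 at both times). *Atp5g2* went from 12.0 ± 0.902% to 13.2 ± 1.56% at 3 days, which missed the limit (exact permutation p = 0.229), and rose from 11.3 ± 1.04% to 18.3 ± 1.09% at 6 days (exact permutation p = 0.0286, adjusted p = 0.0409). By log2 fold change of single genes, *Atp5g1* (-0.02) and *Atp5g2* (0.30) did not pass at 6 days.

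Near-identical copies limit the reading of *Atp5g1*, *Atp5g2* and *Cycs*. The transcribed pseudogene *Gm10175* had 817% as many counts as *Atp5g2*, *Gm10039* had 29.3% as many as *Atp5g1*, and *Gm10053* had 115% as many as *Cycs*. With copies added, *Atp5g2* had a log2 fold change of 0.19 (adjusted p = 0.971) and *Cycs* one of -0.20 (adjusted p = 0.911) at 6 days. In shares of the trio with copies added, *Atp5g3* fell from 29.8 to 25.6% at 3 days and from 32.0 to 21.2% at 6 days (exact permutation p = 0.0286, adjusted p = 0.0477 at both times). *Atp5g2* then held the largest share and rose from 56.1 to 59.3% and from 54.3 to 64.5% (exact permutation p = 0.0286, adjusted p = 0.0477 at both times). *Atp5g1* went from 14.1 to 15.1% and from 13.6 to 14.3%, which missed the limit (exact permutation p = 0.2 and 0.0571, adjusted p = 0.2 and 0.0634). In all 17 of the 44 genes had such copies, 5 of them with copies over 1% of their counts, the other two being *Cox7a2l* (4.29%) and *Cox7c* (4.22%), and the numbers called did not change with copies added. Genes on the opposite strand also overlapped *Atp5f1* (29.6% as many counts), *Cox4i1* (17.3%), *Atp5d* (12.2%) and *Atp5a1* (6.49%).

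**Figure D3:**
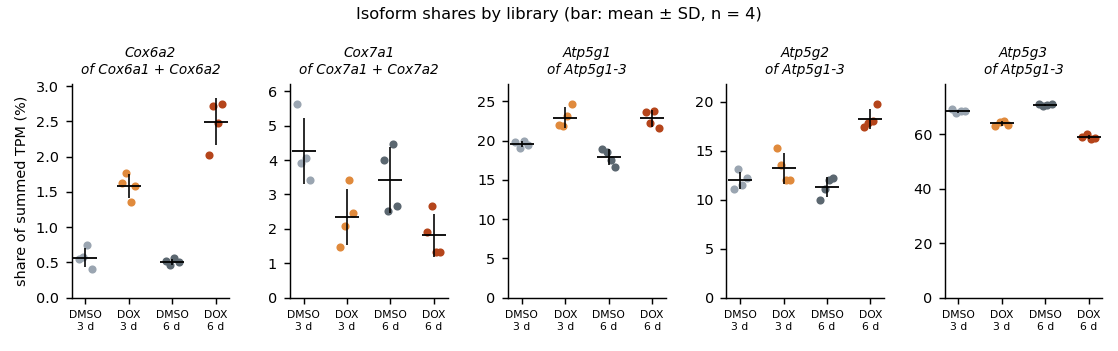
Share of each gene in the summed TPM of its pair or trio, in percent, in each of the 16 libraries (points) with the mean and SD of each group of 4. At 6 days *Cox6a2* went from 0.51% to 2.49% and *Atp5g3* from 70.7% to 58.9%, with no overlap between DMSO and DOX. Near-identical copies are not counted here, and with copies added *Atp5g3* went from 32.0% to 21.2%.

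The 44 genes have short transcripts, with a median length of 746 bases against 2636 over all tested genes, and 11 of the 12 genes lower at 6 days had transcripts under 1000 bases, the other being *Cox7b* at 1001. The 11 include *Cox7a1*, which entered through the groups where it is higher. Of the 26 genes under 1000 bases, 11 were lower at 6 days (median log2 fold change -0.35), and of the 18 longer ones 1 was (median -0.038). Among all tested genes under 1000 bases 13.6% were lower at 6 days and their median was -0.065. Across the 44 genes, length and the 6-day change had Spearman's rho of 0.573 and Pearson's r of 0.346 with log2 length, and across all tested genes rho was -0.003. At 3 days rho was 0.326 across the 44 genes and -0.378 across all tested genes, where short transcripts were higher in DOX (median 0.223 under 1000 bases). For the difference between the times rho was 0.589 across the 44 genes and 0.415 across all. These points share libraries, and genes are not independent, so the values are descriptions. With an offset that removes the trend with length and GC content over all genes, rho across the 44 genes was 0.526 at 6 days and 0.192 for the difference, and the called genes at 6 days numbered 11 lower and 2 higher. The part of length in the fall at 6 days was not tested beyond this offset.

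**Figure D4:**
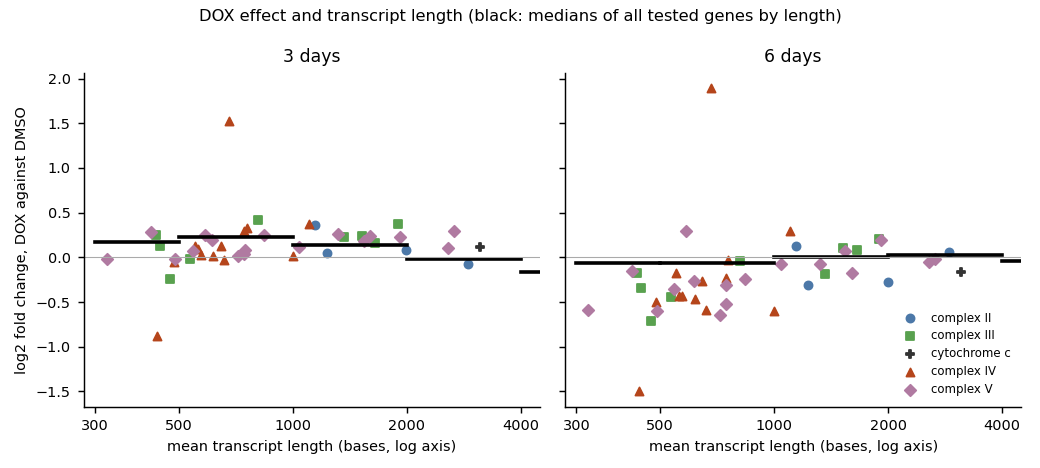
Log2 fold change of DOX against DMSO by mean transcript length (log axis) for the 44 genes at 3 days (left) and 6 days (right), with symbols by complex. Black bars are medians over all tested genes in ranges of length. At 6 days the bars under 1000 bases lie at -0.059 and -0.066 and most symbols of that length lie below them.

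The 6 subunits of complexes III to V encoded in mitochondrial DNA had another pattern. Polyadenylated RNA was selected, so these transcripts were measured only as far as they carry a tail. *mt-Cytb*, cytochrome b of complex III, was at 713, 916, 846 and 975 CPM in the DMSO libraries and 1296, 1418, 1455 and 1569 CPM in the DOX libraries at 6 days. At 3 days it was at 894, 842, 951 and 997 CPM in the DMSO libraries and 993, 1006, 992 and 1031 CPM in the DOX libraries. It rose at 6 days with separated groups (log2 fold change 0.73, SE 0.0855, adjusted p = 2.38e-05), whereas its 3-day change was 0.13 (adjusted p = 1), and the times differed (0.61, adjusted p = 0.00285).

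*mt-Co1*, the catalytic subunit of complex IV, was at 6927, 6845, 7002 and 7142 CPM in the DMSO libraries and 5198, 4447, 4781 and 4424 CPM in the DOX libraries at 3 days. At 6 days it was at 6186, 6702, 6394 and 7189 CPM in the DMSO libraries and 5759.9, 6488, 6592 and 7284 CPM in the DOX libraries. It fell at 3 days (log2 fold change -0.57, SE 0.0863, adjusted p = 0.00315) and had a log2 fold change of -0.02 at 6 days, where the groups overlapped, and the times differed (0.55, adjusted p = 0.00572). *mt-Atp6*, the proton channel subunit of complex V, was at 711, 1294, 1462 and 1331 CPM in the DMSO libraries and 2186, 2386, 1981 and 2203 CPM in the DOX libraries at 6 days and at 1228, 1131, 1374 and 1137 CPM in the DMSO libraries and 1349.8, 1687, 1530.0 and 1423 CPM in the DOX libraries at 3 days. It rose at 6 days, with all DOX libraries above DMSO (log2 fold change 0.87, SE 0.156, adjusted p = 0.00154).

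*mt-Atp8*, whose reading frame overlaps that of *mt-Atp6*, was at 172, 113, 97.8 and 133 CPM in the DMSO libraries and 184, 203, 368 and 410.2 CPM in the DOX libraries at 6 days and at 108, 158, 180.5 and 177 CPM in the DMSO libraries and 226, 185, 210.3 and 174 CPM in the DOX libraries at 3 days. It rose at 6 days, with the lowest DOX library just above the highest DMSO library (log2 fold change 1.18, SE 0.275, adjusted p = 0.0111). The 2 other complex IV subunits did not pass at either time. *mt-Co2* was at 302, 895, 709 and 561 CPM in the DMSO libraries and 803, 671, 531 and 526 CPM in the DOX libraries at 6 days (0.04, adjusted p = 1) and at 758, 508, 626 and 508 CPM in the DMSO libraries and 523, 556, 399 and 541 CPM in the DOX libraries at 3 days (-0.25). *mt-Co3* was at 1017, 1928, 1803 and 1601 CPM in the DMSO libraries and 2205, 2269, 1848 and 1759.5 CPM in the DOX libraries at 6 days (0.35, adjusted p = 0.491) and at 1884, 1209.7, 1290.3 and 1121 CPM in the DMSO libraries and 1155, 1765, 1759.5 and 1616 CPM in the DOX libraries at 3 days (0.19). The spread between replicates was wide for both, and *mt-Co3* passed at 6 days with the offset for length and GC content (0.57, adjusted p = 0.0322). At 6 days 3 of the 6 mitochondrial genes were thus higher and 0 lower (median 0.541), beside 1 higher and 12 lower of the 44 nuclear genes (median -0.207). Without *Cox7a1*, which entered through the groups where it is higher, 11 nuclear genes were lower. Of all tested genes 10.0% were higher and 11.6% lower at 6 days.

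**Figure D5:**
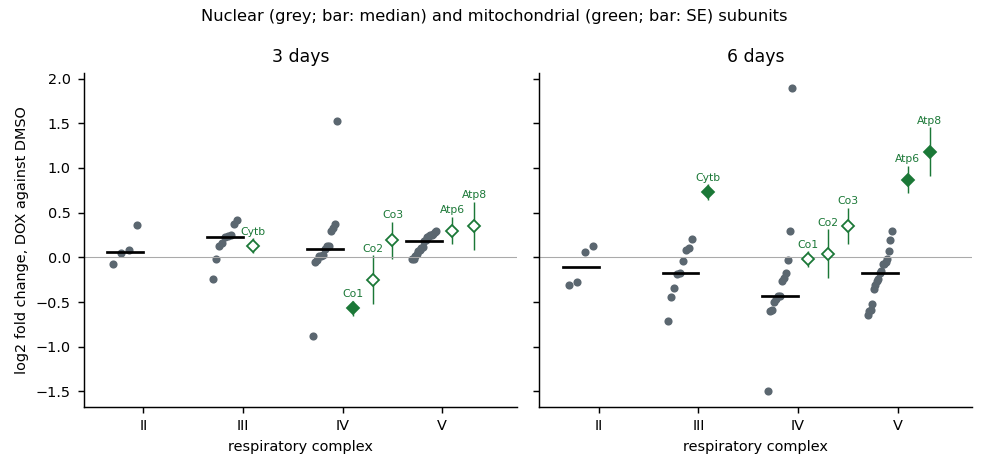
Log2 fold change of DOX against DMSO for nuclear genes (grey points, bar at the median) and mitochondrially encoded subunits (green diamonds with SE, filled where past the test), by complex, at 3 days (left) and 6 days (right). At 6 days *mt-Cytb*, *mt-Atp6* and *mt-Atp8* lie at 0.73, 0.87 and 1.18, above every nuclear gene of complexes III and V.

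Assembly factors insert cofactors and join subunits without staying in the finished complex. The lists used here also hold genes with other roles. Of 42 tested, 3 were higher and 0 lower at 3 days (7.14% called), and 3 were higher and 4 lower at 6 days (16.7% called, median -0.001), beside 12.5% and 21.6% called over all tested genes. All 7 of the latter are on the list of complex IV factors. *Sco2*, a copper chaperone, was higher at both times (log2 fold change 0.55 and 0.63, adjusted p = 0.0105 and 0.000976), and *Oxa1l*, an insertase, was higher at 6 days (0.48, adjusted p = 0.00302). *Higd1a* (-0.69, adjusted p = 0.00028), *Pet100* (-0.61, adjusted p = 0.00941), *Cox20* (-0.60, adjusted p = 0.00644) and *Cmc2* (-0.57, adjusted p = 0.00345) were lower at 6 days. *Tmem70* (0.44, adjusted p = 0.0265), a factor of complex V, was higher at 3 days. The list of complex IV factors held 1 more gene that was higher at 3 days and 1 more at 6 days. By complex, 0 of 4 factors of complex II, 0 of 6 of complex III, 7 of 27 of complex IV and 0 of 5 of complex V were called at 6 days. The DOX effect differed between the times for 15 of the 42 (35.7%), all with the lower value at 6 days. Of all tested genes 17.0% differed, 9.58% with the lower value at 6 days. With the offset for length and GC content 6 of the 42 were lower and 1 higher. *Pet117* was not tested, and *Atp5if1* is a second symbol of *Atpif1*, which did not pass (-0.34 at 6 days, adjusted p = 0.247).

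Of 12 transcription regulators of nuclear respiratory genes, 1 was called at each time (8.33%), beside 12.5% of all tested genes at 3 days and 21.6% at 6 days. *Ppargc1a*, the coactivator that drives mitochondrial biogenesis, was lower at 3 days (-0.63, SE 0.13, adjusted p = 0.0122) and at 6 days (-0.55, SE 0.129, adjusted p = 0.0249). Both calls were absent with the offset for length and GC content, under which the values were -0.52 (adjusted p = 0.0566) and -0.48 (adjusted p = 0.0541) and 0 of the 12 regulators passed at either time. *Nrf1*, *Gabpa*, *Gabpb1*, *Gabpb2*, *Yy1*, *Esrra*, *Ppargc1b*, *Pprc1*, *Tfam*, *Tfb2m* and *Polrmt* did not pass. The DOX effect differed between the times for *Polrmt*, the mitochondrial RNA polymerase (0.37, adjusted p = 0.0204), and *Tfb2m*, its initiation factor (-0.33, adjusted p = 0.0392). These are 16.7% of the 12, beside 17.0% of all tested genes. With the offset neither passed the interaction test (adjusted p = 0.25 for *Polrmt* and 0.125 for *Tfb2m*).

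The nuclear subunits of complex I, which hands electrons from NADH to the rest of the chain, were counted the same way. Of 38 genes 0 were called at 3 days, 6 were lower and 0 higher at 6 days, and 23 had a lower DOX effect at 6 than at 3 days, with medians of 0.230, -0.163 and -0.429. Of all tested genes 11.6% were lower at 6 days and 9.58% had a lower effect, and with the offset for length and GC content 2 and 13 of the 38 did. Of 80 mitochondrial ribosomal protein genes 12 were higher and 0 lower at 3 days, 2 higher and 3 lower at 6 days, and 36 had a lower effect at 6 days, with medians of 0.31, 0.029 and -0.298. Of all tested genes 5.3% were higher at 3 days and 10.0% at 6 days. With the offset 11 of the 80 were higher at 3 days, and 6 were higher and 3 lower at 6 days. Under it 24 had a lower and 1 a higher effect at 6 days. The differences from the genes of complexes II to V were not tested.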

How the data were processed

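The authors sequenced directional poly(A) libraries as 2 × 75 base pairs, aligned them with STAR 2.6.0c and quantified them with Salmon 0.14.10 on GRCm38.p6. They deposited estimated counts per gene, without normalization, and TPM. Whether the counting used strand is not given in the sources used here. Identifiers matched GENCODE M21.

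Estimated counts were rounded, genes with at least 1 CPM in 4 of 16 libraries were kept (13234 of 54393), and robust quasi-likelihood fits with TMM scaling over all 16 libraries were made with edgeR 4.0.16 in R 4.3.3. DOX was compared with DMSO by glmTreat at 1.2-fold, and the difference between times by glmQLFTest without a threshold, two-sided, with Benjamini-Hochberg adjustment at 0.05. SE values are log2 fold changes divided by the square root of the F statistic. CPM are TMM-scaled. Shares of isoforms used an exact permutation test on TPM (scipy 1.17.1). Length and GC correction fitted splines with 5 degrees of freedom to each library and entered as an offset. Near-identical copies were annotated transcripts with at least 95% identity over at least 80% of a transcript (BLAST+ 2.17.0). Upstream windows were RefSeq's on GRCm38.p6. The fits were tested on simulated counts.

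The genes and lists were chosen with earlier results of these data known. Values in every library were given for at most 5 genes of a complex, by absolute change at 6 days, that were called at 3 days, at 6 days or for the difference between times, for the gene with the largest change in a complex without a call, and for the mitochondrial subunits. In other lists, at most 6 called genes a list were named, by absolute change at 6 days. The promoter sequences printed, *Cox6c* and *Cox6a1* at 6 days and the overlapping genes were named after their values were seen. Alternatives were RLE scaling, DESeq2 1.42.0, limma 3.58.1 on log2(TPM + 1) with a pseudocount of 1, other thresholds and filters, non-robust estimation, a replicate block, only the 8 libraries compared, and each library left out. Counts and TPM with copies added and a centred limma fit were added after seeing the data. Equally numbered libraries deviated from their group means with mean r of -0.0953 at 3 days, -0.122 at 6 days and -0.113 in DMSO, and no library correlated best with its own number. No pairing by number was thus seen, although such a comparison could miss one with small effects.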

Additional observations from a re-analysis of the deposited data

Results flagged for a closer look

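Among the 13 genes called at 3 or 6 days, 52 groups of 4 libraries were checked for a library far from the others by Dixon's criterion, which chance alone meets in about 1 in 20 groups, and 7 met it. Of these, 5 were in DOX 3 days replicate 1, where *Cox6c* was at 217 CPM (other replicates 288 to 295), *Cox6b1* at 156, *Atp5k* at 97.9, *Uqcrh* at 96.3 and *Atp5mpl* at 90.6. The other two were in DMSO 6 days replicate 2, where *Atp5mpl* was at 121 CPM (others 96.1 to 99.1) and *Atp5j* at 176 (others 156 to 157).

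For 27 genes the DOX effect differed between 3 and 6 days by the interaction term in edgeR, where 17.0% of all tested genes did. On the log2 scale the effect at 6 days minus that at 3 days was -0.36 for both *Sdhc* and *Sdhd* of complex II. In complex III it was -0.46 for *Uqcrq*, -0.42 for *Uqcr10*, *Uqcrb* and *Uqcrfs1*, -0.48 for *Uqcr11* and -0.47 for *Uqcrh*. In complex IV it was -0.46 for *Cox6a1*, -0.50 for *Cox6c*, -0.52 for *Cox7c*, -0.45 for *Cox6b1*, -0.53 for *Cox5b*, -0.56 for *Cox7a2*, -0.40 for *Cox5a* and -0.62 for *Cox7b*. In complex V it was -0.43 for *Atp5e*, -0.58 for *Atp5mpl*, -0.57 for *Atp5k* and *Atp5j*, -0.38 for *Atp5j2*, -0.45 for *Atp5h*, -0.65 for *Atp5g3*, -0.42 for *Atp5l*, -0.49 for *Atp5o*, -0.41 for *Atp5f1* and -0.34 for *Atp5c1*.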

How the results depend on the processing

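No gene reversed its direction: of 1049 values of single called genes under the alternatives, 858 stayed on the same side of the limit and 191 no longer passed it. The count at 3 days (1) became 19 (17 higher, 2 lower) without a fold-change threshold, 2 without a filter on level, 3 with the length and GC offset and 3 with that offset and the replicate block, and was 1 to 5 with a library left out. Over all 13234 tested genes the 3-day count (1658) became 5982 without a threshold and 2295 without DOX 3 days replicate 1. Without a threshold 6702 of them were called at 6 days. The count at 6 days (13) became 27 (5 higher, 22 lower) without a threshold and 6 (1 higher, 5 lower) in limma on centred log2(TPM + 1), which lost *Atp5j*, *Atp5mpl*, *Cox6a1*, *Cox6b1*, *Cox6c*, *Cox7b* and *Uqcrb*, was 9 in DESeq2, which lost *Cox6a1*, *Cox6b1*, *Cox6c* and *Uqcrb*, and was 9 to 14 with a library left out, where 9 of the 13 genes passed in every case. The count of genes that differed between the times (27) became 16 in limma on log2(TPM + 1), 13 in its centred form, 14 with the offset, 14 with the offset and the block, and 0 with a threshold of 1.2-fold, and was 20 to 33 with a library left out. At that threshold 183 of 13234 tested genes passed. Of the 27, 20 passed with every library left out, and *Atp5c1*, *Atp5e*, *Atp5j2*, *Atp5mpl*, *Cox7c*, *Uqcr10* and *Uqcrq* did not. No gene was called in DMSO between the times under any alternative. The cause of these changes in the counts was not tested, except that a threshold asks for more by construction. The median at 3 days (0.133) was -0.072 in limma on log2(TPM + 1), 0.136 in its centred form, 0.025 with the offset, 0.025 with the offset and the block, and 0.094 to 0.197 with a library left out. The median at 6 days stayed between -0.258 and -0.139.

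The replicate block, although no pairing by number was seen, gave 1 gene at 3 days, 12 at 6 days (without *Cox6a1*, adjusted p = 0.0564), 20 for the difference and 0 in DMSO. For isoform shares in percentage points, the paired sign-flip test under the replicate block cannot give a p under 0.125 with 4 pairs, and the 7 shares that had passed, *Atp5g1* (3.33 at 3 days and 4.93 at 6 days), *Atp5g2* (6.92), *Atp5g3* (-4.54 and -11.9) and *Cox6a2* (1.01 and 1.98), had an adjusted p of 0.156. With a library left out the smallest possible p is 0.0571, so that none can pass, and the shares ran from 2.73 to 3.67 and 4.52 to 5.34 for *Atp5g1*, 6.39 to 7.22 for *Atp5g2* at 6 days, -4.88 to -4.17 and -12.2 to -11.6 for *Atp5g3*, and 0.953 to 1.09 and 1.90 to 2.14 for *Cox6a2*. With copies added *Atp5g1* was at 1.00 and 0.654 and no longer passed, and *Atp5g2* at 3 days (3.21) did. In shares of CPM *Cox7a1* at 3 days (-0.835, adjusted p = 0.0357) passed, a description for a gene that entered through the groups where it is higher. At 10 to 60 counts per library, *Cox7a1* is the gene whose depth limits it most.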
